A study of Mus musculus with 24 samples.

Results

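The transcripts of 10 genes of the Notch pathway were followed across 24 RNA sequencing libraries: the receptors Notch1, Notch2, Notch3 and Notch4, the ligands Jag1, Jag2 and Dll1, and the target genes Hes1, Hey1 and Heyl. They were chosen by symbol from the 37041 genes of the deposited tables, and all 10 were found. The rule holds no measured value, but the choice was made with earlier results of these data known. The libraries form 8 groups of 3. C2C12 cells are a mouse myoblast line that fuses into muscle fibres in culture. They were sequenced as NFIA-expressing and as control cells at 3 points: day 0, day 7 untreated, and day 7 after 10 µM forskolin for 4 h. NFIA is a DNA-binding regulator, a member of the nuclear factor I proteins, and forskolin activates adenylyl cyclase and so raises cAMP. Brown adipose tissue of neonatal mice gave 3 libraries labelled NFIA-KO and 3 of wild-type mice. The vector that carries NFIA, what the control cells carry, the culture medium, and the strain, sex and age in days of the mice are not given in the labels. Nothing in the labels says whether the 3 libraries of a C2C12 group came from separate cultures, so p-values measure the spread between these libraries, which may be technical. The series title names NFIA, PPARgamma and the brown fat gene program, and the comparisons ask here how the Notch genes differed when NFIA was added to myoblasts or labelled as lost from brown fat.

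Notch receptors are membrane proteins that are cut when a Jagged or Delta ligand on a neighbouring cell binds them. The released intracellular part enters the nucleus and, with the DNA-binding protein RBPJ and a Mastermind coactivator, turns on genes such as those of the HES and HEY families, which encode basic helix-loop-helix repressors. In skeletal muscle the pathway is known for holding progenitor cells back from differentiation, in vessels Notch4 is typical of endothelium and Notch3 of pericytes and smooth muscle, and in adipose tissue Notch signalling has been linked to the restraint of the brown and beige fat program.

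Values are FPKM, fragment counts corrected for transcript length and for the fragments mapped in each library. They sum to between 762822 and 1575522 per library, and the read totals behind them are unknown. Dates in the column headers split the C2C12 libraries: replicate 1 of each group has an earlier date and replicates 2 and 3 a later one, and what the dates mark is not stated. Nfia served as the check of the labels. NFIA cells had 1252 to 1283 FPKM of Nfia at day 0, 3189 to 3585 at day 7 and 9232 to 10448 at day 7 with forskolin, against at most 2.23 FPKM in any control library. The libraries labelled NFIA-KO had 44.6, 40.1 and 39.4 FPKM of Nfia, against 24.3, 32.8 and 32.6 FPKM in wild-type tissue, so the transcript level went against the label. Which part of the gene was deleted is not stated, and reads outside a deleted part would check nothing. By their markers, all 6 tissue libraries held brown fat: the summed brown adipocyte list (Ucp1, Cidea, Ppargc1a, Dio2 and Elovl3) was 3850 to 4920 FPKM in those labelled NFIA-KO and 6100 to 9460 FPKM in wild type. The endothelial and mural lists were fully detected there too.

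Before the values, the promoters of 4 genes are shown, because the results in C2C12 cells turn on these genes: Notch3 and Dll1, a receptor and a ligand that were lower in NFIA cells at each time, and Notch1 and Jag1, a receptor and a ligand that were higher at day 7. Each runs from 250 bases before to 50 bases after the start site, 5′ to 3′ on the gene's own strand, as RefSeq gives it on GRCm38.p6. Capitals mark TTGGC, the core of the nuclear factor I site, or its complement GCCAA.
Notch3 (chr17:32166841-32167140, minus strand): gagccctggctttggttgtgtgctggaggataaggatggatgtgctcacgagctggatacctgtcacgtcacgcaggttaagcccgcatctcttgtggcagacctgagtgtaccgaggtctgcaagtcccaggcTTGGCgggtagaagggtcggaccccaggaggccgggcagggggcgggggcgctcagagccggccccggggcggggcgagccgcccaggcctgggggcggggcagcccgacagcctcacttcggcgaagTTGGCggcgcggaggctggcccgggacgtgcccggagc
Dll1 (chr17:15375774-15376073, minus strand): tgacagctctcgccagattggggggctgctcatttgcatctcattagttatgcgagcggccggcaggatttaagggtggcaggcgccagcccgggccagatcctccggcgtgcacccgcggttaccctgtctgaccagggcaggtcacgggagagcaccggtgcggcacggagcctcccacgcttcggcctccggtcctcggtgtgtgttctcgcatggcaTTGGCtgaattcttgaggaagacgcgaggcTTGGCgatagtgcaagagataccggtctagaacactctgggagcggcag
Notch1 (chr2:26503773-26504072, minus strand): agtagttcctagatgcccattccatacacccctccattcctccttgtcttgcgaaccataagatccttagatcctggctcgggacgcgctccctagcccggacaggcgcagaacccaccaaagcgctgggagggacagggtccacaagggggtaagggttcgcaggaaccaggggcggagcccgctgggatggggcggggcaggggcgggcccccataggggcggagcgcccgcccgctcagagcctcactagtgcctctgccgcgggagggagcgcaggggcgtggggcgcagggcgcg
Jag1 (chr2:137116471-137116770, minus strand): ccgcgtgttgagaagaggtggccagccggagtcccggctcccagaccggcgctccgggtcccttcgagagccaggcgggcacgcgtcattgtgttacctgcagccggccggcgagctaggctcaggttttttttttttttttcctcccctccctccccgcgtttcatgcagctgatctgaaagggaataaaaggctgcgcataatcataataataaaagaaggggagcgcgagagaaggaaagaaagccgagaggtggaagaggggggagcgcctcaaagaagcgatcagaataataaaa
Of the 10 genes, 7 had a promoter in the table, and Hes1, Hey1 and Heyl did not. A TTGGC was found on either strand in promoters of 4 of the 7 (Notch2, Notch3, Notch4 and Dll1), where 46.7% of 32851 mouse promoters of the same length hold it. In the Notch3 promoter it lay at positions -116 and 13 from the start site, and in the Dll1 promoter shown at -29 and 2. The other of the 2 Dll1 promoters, not shown, had none, and the Notch1 and Jag1 promoters had none. The promoter of Jag2, which was lower in NFIA cells at each time, had none either. A link between these matches and the direction of change was not tested. The full palindromic nuclear factor I site, TTGGC with GCCAA after a gap of 5 bases, was in none of the 7, against 0.0365% of all promoters. The RBPJ core TGGGAA was likewise in none, against 25.6% of all promoters, and so was GTGGGAA, which contains it, against 6.38%. A match is a string of letters and not a bound site, and the absence of one covers this window only.

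The receptor mix of C2C12 cells differed between NFIA and control cells. In NFIA cells at day 7 Notch1 and Notch2 had the larger shares of receptor FPKM, a scale that corrects for transcript length, and in control cells Notch3 had the largest. Notch3, a receptor known from vascular smooth muscle and also expressed in myoblasts, lies at chr17:32250374-32303825 in mm9. It had 3.68, 3.70 and 3.23 FPKM in NFIA cells at day 0, against 7.97, 11.8 and 11.6 FPKM in control cells. At day 7 its values were 5.73, 7.50 and 8.87 FPKM in NFIA cells, against 21.1, 21.2 and 20.3 FPKM in control cells. With forskolin they were 6.26, 6.90 and 7.56 FPKM in NFIA cells, against 25.6, 31.3 and 33.2 FPKM in control cells. Every NFIA library was below every control library of its time, and no gap was narrow. The log2 fold change of FPKM + 1, which understates the change of low genes, was -1.32 ± 0.151 (SE) at day 0, -1.40 ± 0.151 at day 7 and -1.97 ± 0.151 with forskolin (limma, Benjamini-Hochberg adjusted p = 9.81e-06, 1.15e-06 and 2.13e-08). In cultures of mixed cells, fewer cells of a type and less RNA per cell cannot be told apart.

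**Figure D1:**
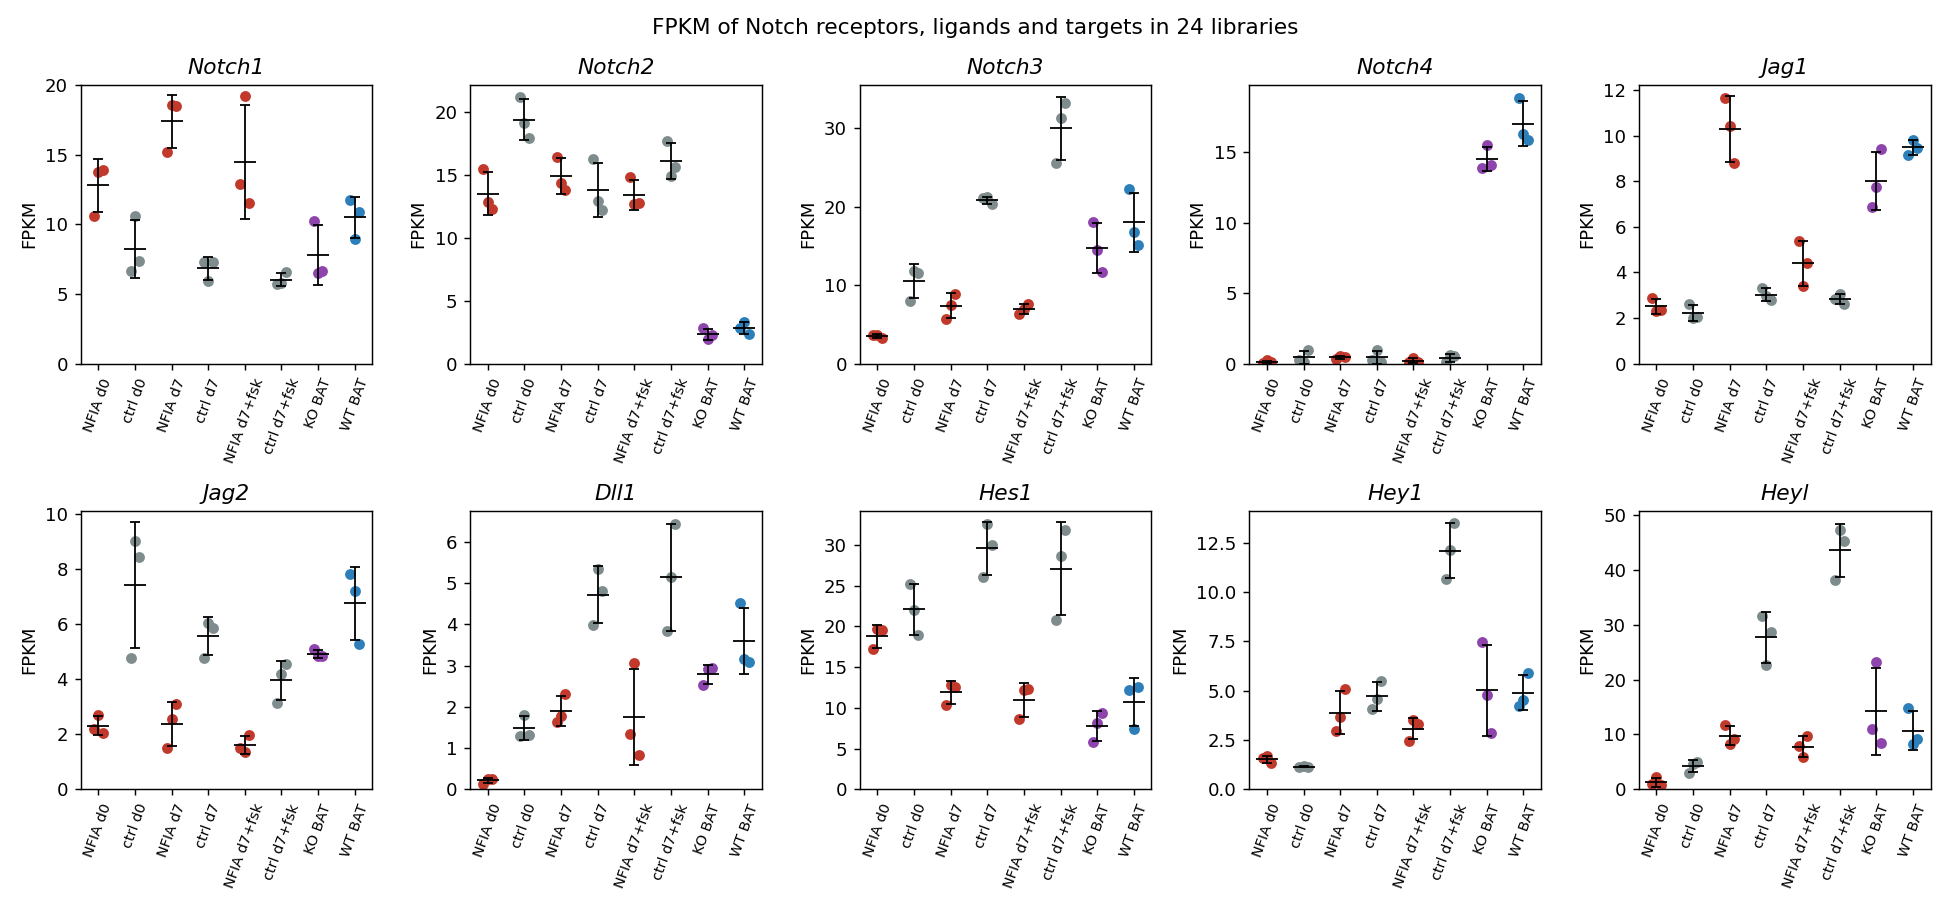
FPKM of the 10 Notch genes (vertical axes, each panel with its own linear scale from 0) in 8 groups of 3 libraries. Points are libraries, long ticks are means and bars are SD; d0 and d7 are day 0 and day 7, fsk is forskolin, KO BAT is brown fat of the libraries labelled NFIA-KO. Notch3 and Heyl stand highest in control cells at day 7 with forskolin, Jag1 in NFIA cells at day 7 without forskolin, and Notch4 is near 0 outside tissue.

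Notch1, the receptor most studied in muscle progenitors, moved the other way. Its gene lies at chr2:26301216-26372183 in mm9. At day 7 it had 15.2, 18.6 and 18.5 FPKM in NFIA cells, against 7.33, 5.91 and 7.33 FPKM in control cells. With forskolin it had 12.9, 19.2 and 11.5 FPKM in NFIA cells, against 5.73, 5.82 and 6.55 FPKM in control cells. The groups did not overlap at either point, and the lowest NFIA library was above the highest control library by more than 4 FPKM. On the log2 scale the change was 1.23 ± 0.182 at day 7 and 1.11 ± 0.182 with forskolin (adjusted p = 3.28e-05 and 7.52e-05). At day 0 the difference was smaller, with 10.6, 13.8 and 13.9 FPKM in NFIA cells and 6.68, 10.6 and 7.37 FPKM in control cells, and the groups touched. Its log2 fold change there was 0.59 ± 0.182 (adjusted p = 0.0302). This call was lost without NFIA replicate 2 or 3 (adjusted p = 0.109 in each case), without control replicate 1 (0.124) or 3 (0.0917), and in the later-dated libraries alone (0.0812).

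Notch2 and Notch4 complete the receptors. Notch2 (chr3:97817461-97954290 in mm9), a receptor of wide expression, had 15.5, 12.9 and 12.2 FPKM in NFIA cells at day 0, against 21.2, 19.1 and 17.9 FPKM in control cells, a fall with a log2 fold change of -0.49 ± 0.118 (adjusted p = 0.00656). All 3 NFIA libraries were lower. At day 7 the groups overlapped, with a mean of 14.9 ± 1.41 FPKM in NFIA cells and 13.8 ± 2.16 FPKM in control cells (SD, n = 3 each), and the log2 fold change of 0.11 had a 95% interval of -0.145 to 0.358. With forskolin all 3 NFIA libraries were again lower, but the log2 fold change of -0.25 had an adjusted p of 0.0834, of 0.0491 without NFIA replicate 1, and of 0.000371 with a replicate block, a fit that takes libraries of the same number as matched. Notch4 (chr17:34701213-34725448 in mm9), the endothelial receptor, ranged from 0.03 to 0.96 FPKM in the 18 C2C12 libraries. It did not reach the minimum for testing, 1 FPKM in 3 libraries, and no change was tested in cells. The endothelial marker list was also low there, with a summed level of 3.39 to 15.7 FPKM, and its member Tie1 was listed at 0 in every C2C12 library.

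As shares of summed receptor FPKM, Notch3 made up 11.8% ± 0.749 in NFIA cells at day 0 and 27.0% ± 4.42 in control cells (SD, n = 3 each). At day 7 its share was 18.3% ± 3.06 in NFIA cells and 49.8% ± 2.53 in control cells. With forskolin it was 19.9% ± 3.29 in NFIA cells and 57.0% ± 4.25 in control cells. The share of Notch1 differed the other way, 43.4% ± 2.69 in NFIA cells at day 7 and 16.4% ± 1.98 in control cells. The summed receptor level differed less, at 40.1 ± 2.10 FPKM in NFIA cells and 41.9 ± 2.60 FPKM in control cells at day 7. At day 7 the groups thus differed more in the shares of the receptors than in the summed receptor FPKM. At day 0 the sums were 29.9 ± 0.572 FPKM in NFIA cells and 38.5 ± 2.89 FPKM in control cells. With forskolin the sums were 35.1 ± 3.71 FPKM in NFIA cells and 52.6 ± 3.43 FPKM in control cells. Shares and sums are descriptions and were not tested.

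**Figure D2:**
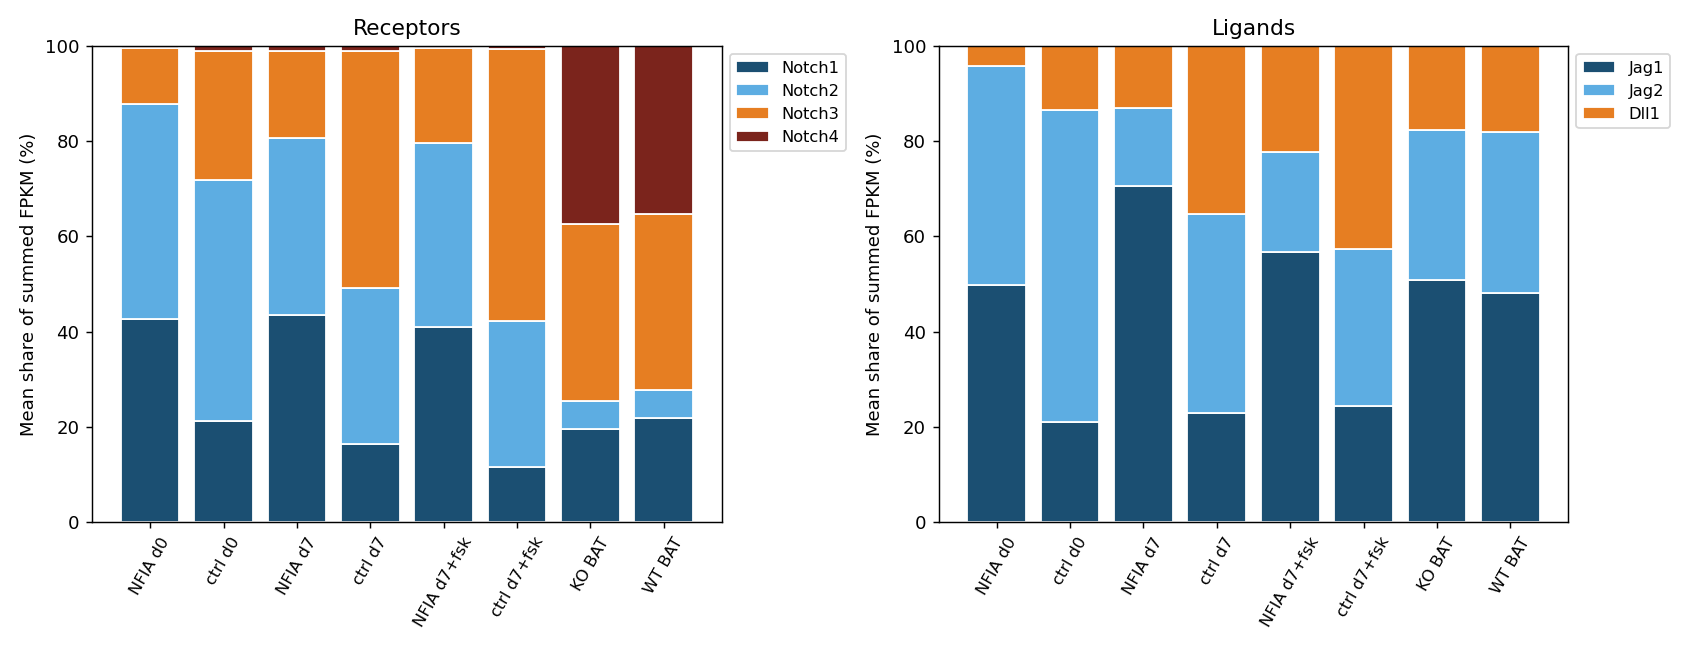
Mean share (%, vertical axis, from 0 to 100, n = 3 libraries a group) of each receptor in the summed receptor FPKM (left) and of each ligand in the summed ligand FPKM (right), in the 8 groups named as in the plot of levels. Notch3 takes 49.8% of receptor FPKM in control cells at day 7 and 18.3% in NFIA cells; Jag1 takes 70.5% of ligand FPKM in NFIA cells at day 7 and 23.0% in control cells.

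Among the ligands, Jag1 rose in NFIA cells at day 7, while Jag2 and Dll1 were lower than in control cells at all 3 points. Jag1 (chr2:136907192-136942380 in mm9), a Jagged ligand, had 11.7, 10.4 and 8.79 FPKM in NFIA cells at day 7, against 3.32, 2.98 and 2.77 FPKM in control cells. All NFIA libraries were more than 5 FPKM above all control libraries. This was a log2 fold change of 1.48 ± 0.131 (adjusted p = 1.24e-07). With forskolin it had 5.39, 3.42 and 4.40 FPKM in NFIA cells, against 2.82, 3.06 and 2.62 FPKM in control cells, still without overlap but with a smaller log2 fold change of 0.48 ± 0.131 (adjusted p = 0.00503). At day 0 the groups overlapped, at 2.51 ± 0.315 FPKM in NFIA cells and 2.22 ± 0.335 FPKM in control cells (SD, n = 3 each), with a log2 fold change of 0.12 and a 95% interval of -0.158 to 0.404.

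Jag2 (chr12:114146801-114167706 in mm9), the other Jagged ligand, had 2.17, 2.70 and 2.05 FPKM in NFIA cells at day 0, against 4.78, 9.0 and 8.43 FPKM in control cells. The gap was there in all libraries, but control replicate 1, which carries the earlier header date, lay well below the other two. The log2 fold change was -1.31 ± 0.209 (adjusted p = 0.000263), -0.87 between the earlier-dated libraries and -1.53 ± 0.134 in the later-dated ones. At day 7 the levels were 1.51, 2.55 and 3.09 FPKM in NFIA cells, against 4.76, 6.02 and 5.87 FPKM in control cells (log2 fold change -0.98 ± 0.209, adjusted p = 0.000974). With forskolin they were 1.60 ± 0.315 FPKM in NFIA cells and 3.95 ± 0.723 FPKM in control cells (SD, n = 3 each), a log2 fold change of -0.92 ± 0.209 (adjusted p = 0.00133). Dll1 (chr17:15504318-15516439 in mm9), a Delta ligand made by differentiating myoblasts, was under 0.3 FPKM in NFIA cells at day 0, with 0.14, 0.26 and 0.24 FPKM, against 1.30, 1.81 and 1.32 FPKM in control cells. At day 7 it had 1.62, 1.77 and 2.32 FPKM in NFIA cells, against 3.99, 5.35 and 4.81 FPKM in control cells. It was thus lower in every NFIA library at both days, with log2 fold changes of -1.02 ± 0.229 at day 0 and -0.98 ± 0.229 at day 7 (adjusted p = 0.00422 and 0.00197). With forskolin Dll1 spread widely in NFIA cells, at 1.34, 3.06 and 0.84 FPKM, against 3.84, 5.15 and 6.44 FPKM in control cells (log2 fold change -1.22 ± 0.229, adjusted p = 0.000273). The low levels of Dll1 are where the added 1 FPKM matters most, and no value in the files tells the counting error behind them.

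Ligand RNA changed in make-up as well. Jag1 was 70.5% ± 8.47 of summed ligand FPKM in NFIA cells at day 7 and 23.0% ± 3.94 in control cells (SD, n = 3 each). Jag2 was 16.4% ± 5.83 in NFIA cells and 41.7% ± 2.12 in control cells. The share of Dll1 was 13.1% ± 2.85 in NFIA cells and 35.4% ± 2.14 in control cells. The summed level was 14.6 ± 0.327 FPKM in NFIA cells and 13.3 ± 1.15 FPKM in control cells. At day 0 it was 5.03 ± 0.337 FPKM in NFIA cells and 11.1 ± 2.15 FPKM in control cells.

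The 3 target genes were lower in NFIA cells where they differed, first Heyl at day 0, then Hes1 at day 7, and Hey1 with forskolin. Heyl (chr4:122910799-122927118 in mm9), a HEY family repressor, had 0.91, 2.19 and 0.73 FPKM in NFIA cells at day 0, against 2.91, 4.67 and 5.05 FPKM in control cells. At day 7 it had 11.7, 8.34 and 9.22 FPKM in NFIA cells, against 31.7, 22.7 and 28.7 FPKM in control cells. With forskolin it had 7.84, 5.81 and 9.67 FPKM in NFIA cells, against 38.1, 47.3 and 45.3 FPKM in control cells. The groups were apart at each point, and the widest gap was with forskolin. The log2 fold change was -1.22 ± 0.238 at day 0, -1.41 ± 0.238 at day 7 and -2.36 ± 0.238 with forskolin (adjusted p = 0.00142, 0.000115 and 4.64e-07).

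Hes1 (chr16:30064470-30067882 in mm9), the best known Notch target and a repressor that keeps progenitors undifferentiated, overlapped between groups at day 0, at 18.8 ± 1.39 FPKM in NFIA cells and 22.1 ± 3.09 FPKM in control cells (SD, n = 3 each; log2 fold change -0.21, 95% interval -0.563 to 0.136). At day 7 it had 10.3, 12.8 and 12.6 FPKM in NFIA cells, against 26.1, 32.6 and 30.0 FPKM in control cells. With forskolin it had 8.60, 12.2 and 12.3 FPKM in NFIA cells, against 20.8, 28.6 and 31.9 FPKM in control cells. The lowest control library was above the highest NFIA library at both of the later points, with log2 fold changes of -1.24 ± 0.163 and -1.22 ± 0.163 (adjusted p = 9.73e-06 and 1.01e-05). Hey1 (chr3:8663362-8667039 in mm9), the other HEY gene, separated with forskolin: it had 2.47, 3.49 and 3.29 FPKM in NFIA cells, against 10.7, 12.1 and 13.5 FPKM in control cells. Its log2 fold change was -1.68 ± 0.146 (adjusted p = 8.93e-08). At day 7 without forskolin it had 2.95, 3.64 and 5.07 FPKM in NFIA cells, against 4.05, 4.60 and 5.48 FPKM in control cells, and the groups overlapped (log2 fold change -0.24, adjusted p = 0.183, or 0.0212 without NFIA replicate 3). At day 0 every NFIA library was slightly above every control library, averaging 1.53 ± 0.177 FPKM in NFIA cells and 1.15 ± 0.0252 FPKM in control cells, with a log2 fold change of 0.23 and an adjusted p of 0.318.

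Counted over the pathway, 6 of the 9 tested Notch genes differed at day 0, 1 higher and 5 lower, where 21.2% of 14351 tested genes did (12.1% higher and 9.07% lower), or 5159 genes with the replicate block, against 3036 without it. At day 7, 7 of 9 differed, 2 higher and 5 lower, against a background of 55.5% (26.1% higher and 29.4% lower). With forskolin, 8 of 9 differed, 2 higher and 6 lower, against 61.6% (28.7% higher and 32.9% lower). So at day 7 and with forskolin a change as such was common to most tested genes, and a count of this kind says little about the Notch genes. The genes were also chosen with earlier results of these data known, which limits the day 0 count and the medians below too. The median log2 fold change of the 9 genes was -0.494 at day 0, -0.977 at day 7 and -1.22 with forskolin, where that of all tested genes was 0.0204, -0.0314 and -0.037. Over all comparisons of C2C12 cells, 39 calls were made on Notch genes. In each the later-dated libraries and the earlier-dated one differed in the same direction. In the later-dated libraries alone 38 passed the test, the exception being Notch1 at day 0. The calls were made on these same libraries and the comparisons share groups, so this is no independent support.

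**Figure D3:**
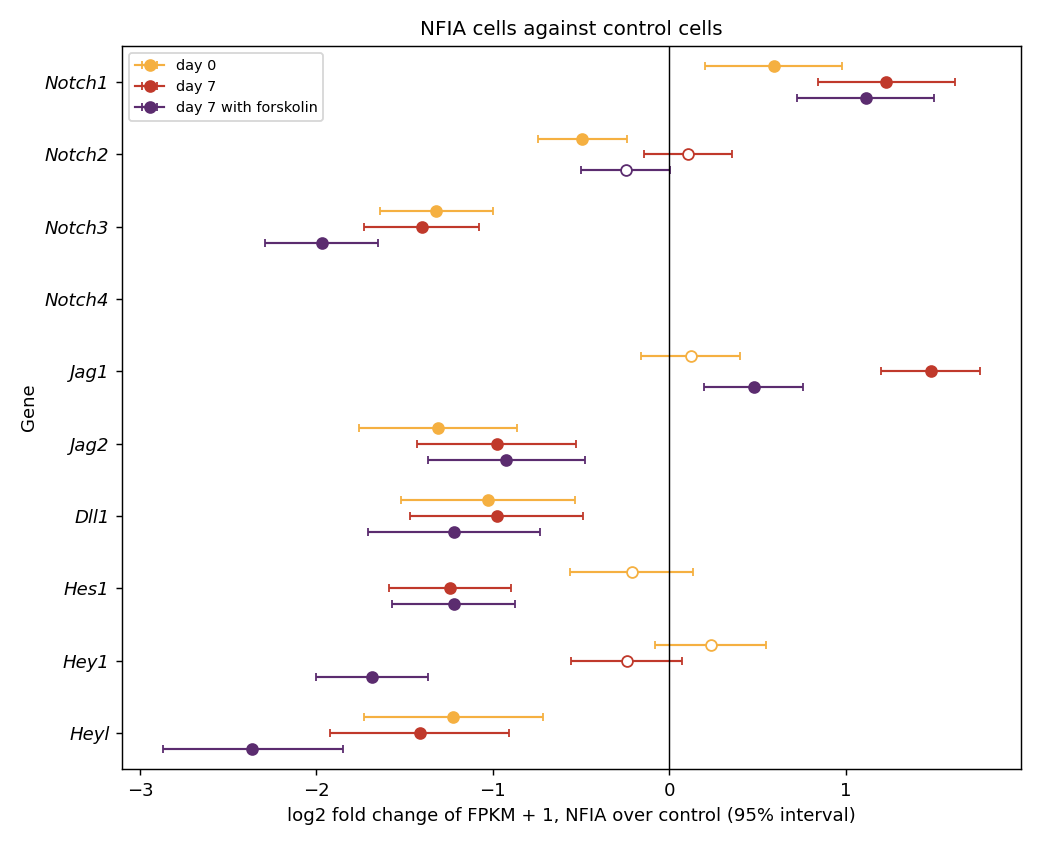
Log2 fold change of FPKM + 1 (horizontal axis, linear), NFIA over control C2C12 cells, for the Notch genes (rows) at day 0, day 7 and day 7 with forskolin; n = 3 libraries a group. Points are estimates, bars 95% intervals, filled points passed an adjusted p of 0.05, and Notch4 was not tested. Notch1 lies right of 0 at all 3 points, Notch3, Jag2, Dll1 and Heyl left of it, and Hey1 is filled with forskolin only.

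Markers of muscle, fat and progenitor cells also differed between NFIA and control cells. The 9 skeletal muscle markers were all lower in NFIA cells at day 7, with a summed level of 3080 to 4290 FPKM in NFIA cells and 27800 to 28700 FPKM in control cells, and 7 of the 9 were lower at day 0, at 8.66 to 10.9 FPKM in NFIA cells and 44.6 to 53.6 FPKM in control cells. With forskolin the muscle sum was 2290 to 4350 FPKM in NFIA cells and 16600 to 32200 FPKM in control cells. The 6 adipocyte markers were all higher at day 7, at 22300 to 24500 FPKM in NFIA cells, mostly Fabp4, and 5.56 to 10.7 FPKM in control cells. The brown adipocyte list was mixed at day 7, with Cidea, Ppargc1a and Elovl3 higher, Dio2 lower and Ucp1 not called. Its sum was 57.4 to 64.8 FPKM in NFIA cells, mostly Cidea, and 13.1 to 14.9 FPKM in control cells, mostly Dio2. With forskolin all 5 of its genes were higher in NFIA cells. Of the 8 mural markers 4 were tested, and at day 7 Pdgfrb, Acta2 and Tagln were lower and Cspg4 higher. The mural sum was 239 to 297 FPKM in NFIA cells and 1170 to 1290 FPKM in control cells. All 4 tested of 6 fibroblast and adipocyte progenitor markers were higher in NFIA cells at day 0, with a median log2 fold change of 2.04 and sums of 520 to 612 FPKM in NFIA cells and 171 to 203 FPKM in control cells. At day 7 Cd34 and Ly6a of that list were higher and Pdgfra and Dcn lower, and the sum, mostly Ly6a, was 596 to 730 FPKM in NFIA cells and 271 to 343 FPKM in control cells. The muscle progenitor sum was 16.1 to 16.9 FPKM in NFIA cells and 36.3 to 37.7 FPKM in control cells at day 0, where Myf5 had a log2 fold change of -2.39 and Pax7 one of 0.33. At day 7 it was 17.2 to 30 FPKM in NFIA cells and 55.8 to 62.4 FPKM in control cells. The nerve and glia sum, mostly Tubb3, was 4.8 to 7.25 FPKM in NFIA cells and 16.1 to 19.6 FPKM in control cells at day 7. Immune and erythroid sums were at most 25 and 6.16 FPKM in any C2C12 library. The defining mural markers Rgs5, Myh11, Abcc9 and Kcnj8 did not reach the minimum for testing in cells. The part of the cell mix in the Notch differences was not tested.

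Between day 0 and day 7 the same 4 genes rose in NFIA and in control cells: Notch3, Dll1, Hey1 and Heyl. Heyl, given above by library, had a log2 fold change of FPKM + 1 of 2.28 ± 0.238 in NFIA cells and 2.47 ± 0.238 in control cells (adjusted p = 8.46e-07 and 6.22e-07). As ratios of mean FPKM at day 7 to day 0, Heyl had 7.64 in NFIA cells and 6.57 in control cells. Dll1, from a lower level, had 8.92 in NFIA cells and 3.19 in control cells. Hey1 had 2.95, 3.64 and 5.07 FPKM at day 7 against 1.56, 1.69 and 1.34 FPKM at day 0 in NFIA cells, a log2 fold change of 0.93 ± 0.146 (adjusted p = 6.36e-05). In control cells it had 4.05, 4.60 and 5.48 FPKM at day 7 against 1.15, 1.17 and 1.12 FPKM at day 0, a log2 fold change of 1.40 ± 0.146 (adjusted p = 1.51e-06). Notch3 rose by 0.87 ± 0.151 in NFIA cells and 0.95 ± 0.151 in control cells on that scale, and Dll1 by 1.25 ± 0.229 in NFIA cells and 1.21 ± 0.229 in control cells (adjusted p = 0.000161, 0.000102, 0.000256 and 0.000493). Across all 9 tested Notch genes, 6 differed between days in NFIA cells, 5 higher and 1 lower, where 56.9% of all tested genes did (27.5% higher and 29.4% lower). In control cells 5 differed, 4 higher and 1 lower, where 48.9% of all tested genes did (24.9% higher and 23.9% lower).

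The remaining calls over time were made in 1 kind of cell each, and several of the values in the other kind lay near the threshold. Jag1 rose in NFIA cells, with a log2 fold change of 1.68 ± 0.131 (adjusted p = 3.14e-08), where in control cells it was 0.32 ± 0.131 (adjusted p = 0.0549). All 3 control libraries at day 7 were above those at day 0, and Jag1 passed there with the replicate block (adjusted p = 0.0102), with header date as a term (0.00744), in the later-dated libraries (0.0275), with 0.1 FPKM added in place of 1 (0.0393) and without control day 0 replicate 1 (0.0304). Hes1 fell in NFIA cells, by 0.62 ± 0.163 (adjusted p = 0.00439), where in control cells its log2 fold change was 0.41 ± 0.163 (adjusted p = 0.0511). That rise passed with the block (0.0168), with date as a term (0.0127), in the later-dated libraries (0.000275), with quantile or median-of-ratios scaling (0.0413 and 0.0304), and without control day 0 replicate 1 (0.0331) or control day 7 replicate 1 (0.04). Notch2 fell in control cells, by 0.47 ± 0.118 (adjusted p = 0.00396), where in NFIA cells it was 0.13 with a 95% interval of -0.122 to 0.381 (adjusted p = 0.376, or 0.0258 with the block). The difference itself was tested as an interaction, the NFIA effect at day 7 less that at day 0, and passed for these 3 genes. It was 1.36 ± 0.185 for Jag1 (adjusted p = 2.26e-05), -1.03 ± 0.231 for Hes1 (0.00188) and 0.60 ± 0.166 for Notch2 (0.00817), where 45.3% of all tested genes passed (19.8% higher and 25.5% lower). For Notch1 it was 0.64 (adjusted p = 0.0562, or 0.03 with the block, 0.0295 without control day 0 replicate 1 and 0.0444 without NFIA day 7 replicate 1), and for Hey1 -0.47 (0.0772, or 0.0263 with the block and 0.0107 without NFIA day 7 replicate 3). Notch1 over time in NFIA cells had an adjusted p of 0.0587, or 0.0343 with the block and 0.0455 without NFIA day 7 replicate 1. Jag2 over time in control cells had 0.221, or 0.0221 without control day 0 replicate 1 and 0.0129 in the later-dated libraries. The interaction for Jag2 was 0.33 (adjusted p = 0.394, or 0.0154 in the later-dated libraries).

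**Figure D4:**
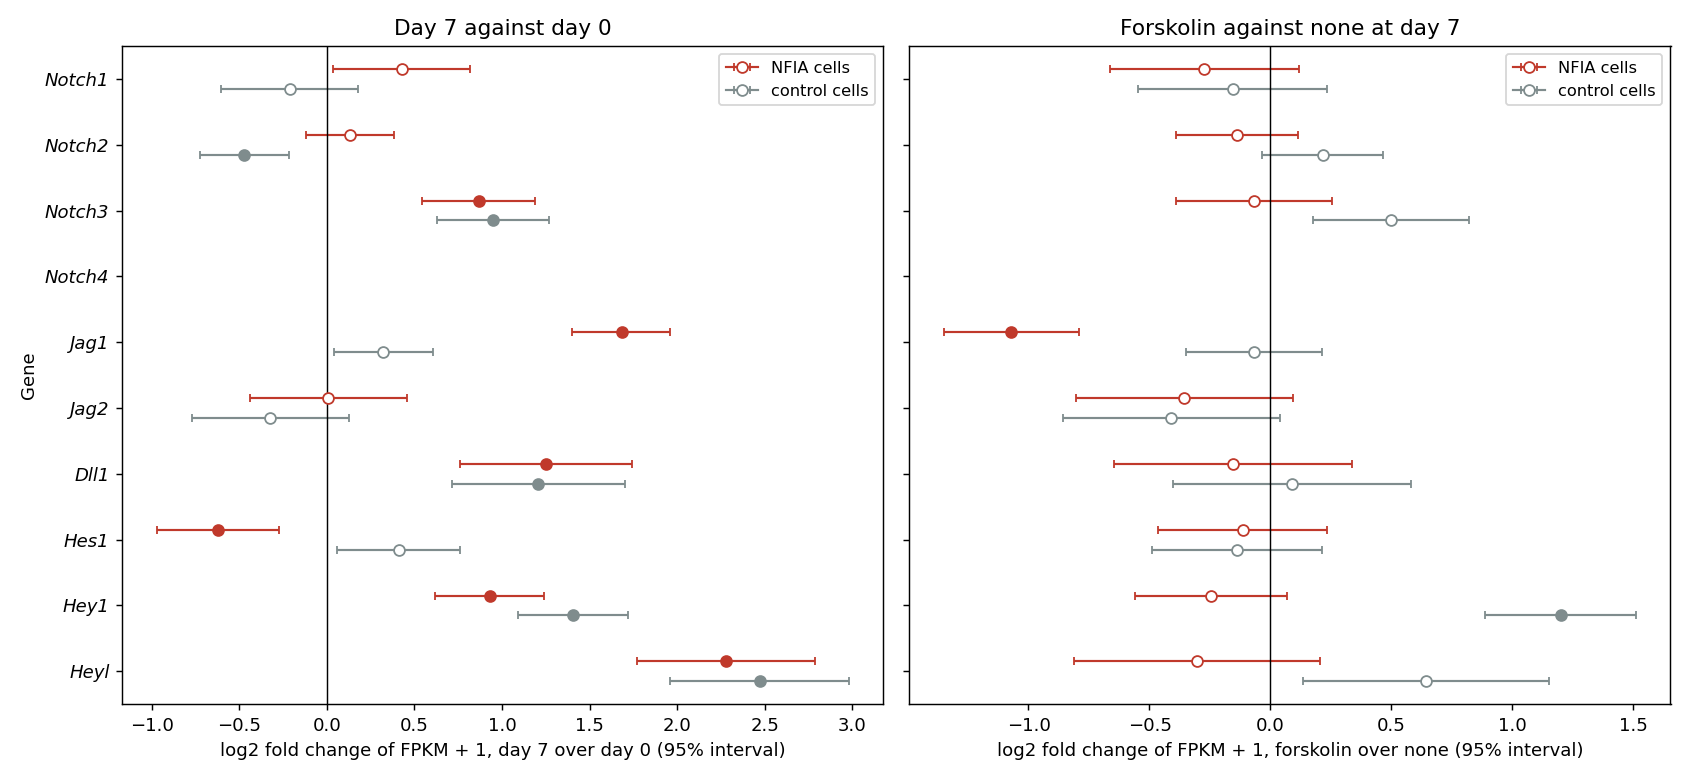
Log2 fold change of FPKM + 1 (horizontal axes, linear) of the Notch genes (rows) for day 7 over day 0 (left) and for forskolin over none at day 7 (right), in NFIA and in control C2C12 cells; n = 3 libraries a group. Points are estimates, bars 95% intervals, filled points passed an adjusted p of 0.05, and Notch4 was not tested. Jag1 in NFIA cells and Hey1 in control cells are the only filled points for forskolin, at -1.07 and 1.2.

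With forskolin for 4 h at day 7, 1 Notch gene passed the test in each kind of cell, Jag1 in NFIA cells and Hey1 in control cells. In NFIA cells Jag1 fell to 5.39, 3.42 and 4.40 FPKM with forskolin, against 11.7, 10.4 and 8.79 FPKM without it, a log2 fold change of -1.07 ± 0.131 (adjusted p = 1.75e-05). No library with forskolin reached the lowest without it. It was 1 call among 9 Notch genes in NFIA cells, where 32.6% of all tested genes were called (15.7% higher and 16.9% lower). With the replicate block Notch2 was called too, with a log2 fold change of -0.14 (adjusted p = 0.0279). In control cells Hey1 rose to 10.7, 12.1 and 13.5 FPKM with forskolin, against 4.05, 4.60 and 5.48 FPKM without it, a log2 fold change of 1.2 ± 0.146 (adjusted p = 0.000176). The groups were far apart, and it was 1 call among 9 in control cells, where 3.97% of all tested genes were called (1.92% higher and 2.06% lower). The block called 3 of the 9 and 1260 genes in all, against 570, adding Notch2 (log2 fold change 0.22, adjusted p = 0.0118) and Notch3 (0.50, adjusted p = 0.0191). Both responses differed between the kinds of cell: the response in NFIA cells less that in control cells was -1.0 ± 0.185 for Jag1 (adjusted p = 0.00129) and -1.44 ± 0.207 for Hey1 (0.000154), 2 lower calls among 9 genes, where 20.1% of all tested genes were called (10.5% higher and 9.61% lower). With the block 4 of the 9 and 5041 genes in all were called, against 2890, adding Notch2 (-0.35, adjusted p = 0.00121) and Notch3 (-0.57, adjusted p = 0.0188).

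Notch3 and Heyl were higher in every control library with forskolin than in any without it, and neither passed the main test. The share of all tested genes with that pattern is not given here. Notch3 had 25.6, 31.3 and 33.2 FPKM with forskolin, against 21.1, 21.2 and 20.3 FPKM without it, all higher, with a log2 fold change of 0.50 ± 0.151 and an adjusted p of 0.0946. It passed in the later-dated libraries alone (adjusted p = 0.00591) and with quantile or median-of-ratios scaling (0.0326 and 0.0362), as with the block. Heyl was likewise higher in all 3 libraries with forskolin, with a log2 fold change of 0.64 ± 0.238 (adjusted p = 0.213). Unlike Notch3, it passed under none of the alternatives, the block included. The difference between the kinds of cell was -0.57 ± 0.213 for Notch3 (adjusted p = 0.0791, or 0.0228 without NFIA day 7 replicate 1 and 0.0432 without control forskolin replicate 1). For Heyl it was -0.95 ± 0.336 (0.0622, or 0.0427 without NFIA forskolin replicate 3 and 0.0445 with header date as a term). In NFIA cells Notch1 had a log2 fold change of -0.27 with forskolin (adjusted p = 0.286, or 0.0487 without NFIA forskolin replicate 2, the library at 19.2 FPKM). Jag2 had one of -0.36 there (adjusted p = 0.223, or 0.0116 in the later-dated libraries).

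In brown adipose tissue none of the 10 Notch genes passed the test between the libraries labelled NFIA-KO and wild type, where 7.14% of 13618 tested genes did. By limma, 0 of the 10 also had an unadjusted p under 0.05. Since Nfia was not lower in the libraries labelled NFIA-KO, the directions below are those of the labels. Notch4 had 13.9, 15.5 and 14.1 FPKM in the libraries labelled NFIA-KO, against 18.8, 16.3 and 15.9 FPKM in wild type. Jag2 had 5.09, 4.82 and 4.85 FPKM in those labelled NFIA-KO, against 7.80, 7.20 and 5.26 FPKM in wild type. Dll1 had 2.53, 2.91 and 2.94 FPKM in those labelled NFIA-KO, against 4.51, 3.17 and 3.08 FPKM in wild type. In these 3 genes every library labelled NFIA-KO was below every wild-type one, though by small gaps, and 18.2% of all tested genes had that pattern. The log2 fold change was -0.21 for Notch4 (95% interval -0.509 to 0.0805), -0.37 for Jag2 (-0.758 to 0.00948) and -0.26 for Dll1 (-0.649 to 0.126), with adjusted p = 0.302, 0.181 and 0.335.

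The other 7 genes overlapped between the tissue groups. Notch1 had 10.3, 6.5 and 6.62 FPKM in the libraries labelled NFIA-KO, against 11.8, 8.93 and 10.9 FPKM in wild type (log2 fold change -0.41, 95% interval -0.884 to 0.0633). Hes1 had 5.76, 8.17 and 9.38 FPKM in those labelled NFIA-KO, against 12.2, 7.35 and 12.5 FPKM in wild type (log2 fold change -0.41, 95% interval -0.989 to 0.177). Heyl had 10.9, 23.3 and 8.50 FPKM in those labelled NFIA-KO, against 14.8, 8.21 and 9.21 FPKM in wild type. Replicate 2 of those labelled NFIA-KO stood apart, and the log2 fold change was 0.30 with it (95% interval -0.579 to 1.18) and -0.10 without it. Notch3 averaged 14.7 ± 3.18 FPKM in those labelled NFIA-KO and 18 ± 3.73 FPKM in wild type, Jag1 8.02 ± 1.28 FPKM in those labelled NFIA-KO and 9.49 ± 0.331 FPKM in wild type, and Hey1 5.01 ± 2.31 FPKM in those labelled NFIA-KO and 4.89 ± 0.896 FPKM in wild type (SD, n = 3 each). Each 95% interval of the 10 genes included 0 and reached past 0.5 log2 units in at least 1 direction.

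**Figure D5:**
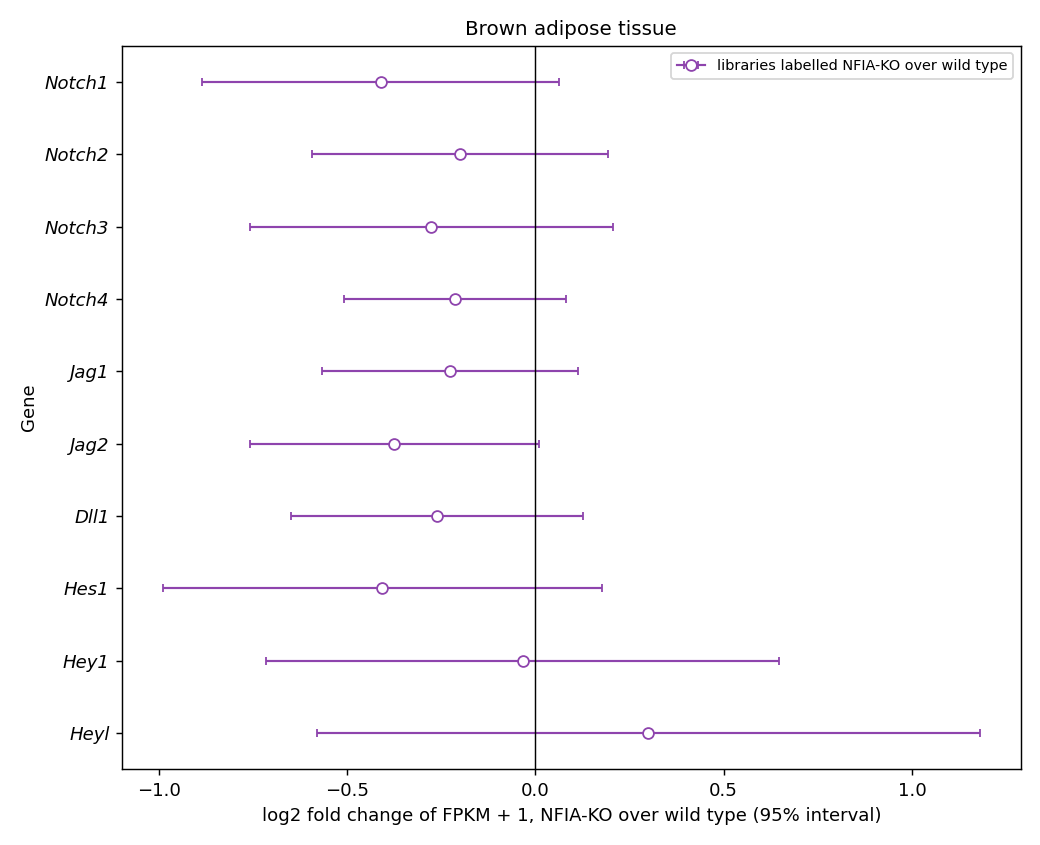
Log2 fold change of FPKM + 1 (horizontal axis, linear) of the 10 Notch genes (rows) in brown adipose tissue, libraries labelled NFIA-KO over wild type, n = 3 each. Points are estimates and bars 95% intervals; all points are open since none passed an adjusted p of 0.05, and every bar crosses 0.

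Sums of the marker lists are given for each tissue group. The endothelial sum was 561 to 675 FPKM in the libraries labelled NFIA-KO and 662 to 791 FPKM in wild type, and the mural sum 126 to 143 FPKM in those labelled NFIA-KO and 152 to 194 FPKM in wild type, with 0 of 10 and 0 of 8 markers past the test. Of the 9 skeletal muscle markers 5 were higher in those labelled NFIA-KO, with sums of 2080, 326 and 1100 FPKM, against 75.2, 75.4 and 161 FPKM in wild type. The library with the high Heyl value had a muscle sum of 326 FPKM, the lowest of those labelled NFIA-KO but above every wild-type sum. A link between Heyl and the muscle markers was not tested. Of the 5 brown adipocyte genes, Ucp1 and Elovl3 were lower in the libraries labelled NFIA-KO (log2 fold change -1.73 and -2.66), and Ppargc1a, Cidea and Dio2, at 1.06, 0.38 and 0.29, did not pass; the median of the 5 was 0.293. The nerve and glia sum was lower in every library labelled NFIA-KO, at 11, 13.4 and 16 FPKM, against 40.1, 34.2 and 25 FPKM in wild type, and S100b of that list passed (log2 fold change -1.87, adjusted p = 0.0329), 1 of 4 tested. Fibroblast and adipocyte progenitor sums were 148 to 296 FPKM in those labelled NFIA-KO and 100 to 156 FPKM in wild type, immune sums 36.2 to 82.5 FPKM in those labelled NFIA-KO and 34.3 to 55 FPKM in wild type, and erythroid sums 4440 to 8450 FPKM in those labelled NFIA-KO and 4250 to 5610 FPKM in wild type, with no marker of these 3 lists past the test. Muscle progenitor markers summed to at most 0.88 FPKM. Wild-type replicate 3 listed the abundant fat gene Fabp4 at 0, and its adipocyte sum was 3020 FPKM where the other two had 26000 and 23300 FPKM. No Notch gene was listed at 0 in any tissue library, and the part of cell mix in their levels was not tested.

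Set side by side, tissue and C2C12 cells differed most in Notch4 and Notch2, which is given as levels with no test. Notch4 was 37.3% ± 5.56 of receptor FPKM in the libraries labelled NFIA-KO and 35.2% ± 1.24 in wild type, and at most 1.14% on average in any C2C12 group. Notch2 was 5.91% ± 0.796 in those labelled NFIA-KO and 5.87% ± 1.21 in wild type, and between 30.8% and 50.7% on average in C2C12 groups. Ordered by group mean, Notch2 ran from 19.4 FPKM in control cells at day 0 to 2.32 FPKM in the tissue labelled NFIA-KO, and the step between cells and tissue was free of overlap. For Notch1 all 7 steps between neighbouring groups overlapped, from 17.4 FPKM in NFIA cells at day 7 to 6.03 FPKM in control cells with forskolin. Notch3 ran from 30.0 FPKM in control cells with forskolin to 3.54 FPKM in NFIA cells at day 0, and its top and bottom steps did not overlap while the 5 between them did. Heyl had the same extremes, 43.6 and 1.28 FPKM, with 4 of 7 steps overlapping, and so did Dll1, at 5.14 and 0.213 FPKM. Hey1 was highest in control cells with forskolin at 12.1 FPKM, clear of the next group at 5.01 FPKM in the tissue labelled NFIA-KO, and lowest in control cells at day 0 at 1.15 FPKM. For Hes1 6 of 7 steps overlapped, and the clear one lay between NFIA cells at day 0, at 18.8 FPKM, and NFIA cells at day 7, at 11.9 FPKM. Jag1 was highest in NFIA cells at day 7, at 10.3 FPKM, overlapping both tissue groups, and Jag2 highest in control cells at day 0, at 7.40 FPKM.

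Other genes of the pathway were followed as lists of its steps. The counts below stand beside the shares of all tested genes, 26.1% higher and 29.4% lower at day 7 and 28.7% higher and 32.9% lower with forskolin, and lists this short are described only. Of the 5 enzymes that put sugars on Notch receptors, 4 were higher in NFIA cells at day 7 and none lower, with a median log2 fold change of 0.666. With forskolin 2 were higher and 1 lower, with a median of -0.114. Mfng, a Fringe glycosyltransferase that tunes which ligands a receptor answers, had 8.90 ± 2.0 FPKM in NFIA cells and 0.0367 ± 0.0635 FPKM in control cells (SD, n = 3 each), with a log2 fold change of 3.24 ± 0.167 (adjusted p = 2.51e-10). The related Lfng was higher at day 0, at 23.8 ± 4.16 FPKM in NFIA cells and 9.88 ± 3.82 FPKM in control cells, and at day 7, at 6.51 ± 1.54 FPKM in NFIA cells and 3.0 ± 0.594 FPKM in control cells. Rfng, the remaining Fringe gene, had a log2 fold change of 0.67 at day 7. Lfng fell under forskolin in NFIA cells, to 1.10 ± 0.150 FPKM with forskolin, against 6.51 ± 1.54 FPKM without it. Of the 4 ubiquitin ligases that drive ligand endocytosis, 2 were lower at day 7 and none higher, and the same counts held with forskolin, close to the share of all tested genes that were called (55.5% and 61.6%). Neurl1a, a Neuralized ligase, had 4.13 ± 1.11 FPKM in NFIA cells and 27.6 ± 2.14 FPKM in control cells at day 7, a log2 fold change of -2.50 ± 0.146 (adjusted p = 1.07e-09). At day 0 Mib2, a Mind bomb ligase, was higher, at 14.8 ± 0.462 FPKM in NFIA cells and 7.98 ± 2.09 FPKM in control cells. Of the 4 other ligands listed, 1 was tested in cells, and it did not pass in any of the 3 comparisons with control cells.

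Inside the cell the steps were mixed in direction. Of the 10 cleavage enzymes 2 were higher and 4 lower in NFIA cells at day 7, and 1 higher and 4 lower with forskolin, again close to the 55.5% and 61.6% of all tested genes that were called. The gamma-secretase subunit Psen2 was among the higher ones (log2 fold change 0.79). Of the 11 genes of the nuclear complex and its corepressors 3 were higher and 6 lower at day 7, and 3 higher and 5 lower with forskolin. Rbpj, which encodes the DNA-binding protein of the pathway, was lower, at 5.55 ± 0.496 FPKM in NFIA cells and 12.3 ± 0.698 FPKM in control cells at day 7 (log2 fold change -1.02 ± 0.116, adjusted p = 1.98e-06). It was lower with forskolin as well, at 4.56 ± 0.726 FPKM in NFIA cells and 11 ± 0.872 FPKM in control cells. The Groucho family corepressor Tle1 was higher at day 7 (log2 fold change 1.38). Of 9 negative regulators 7 were tested, with 2 higher and 4 lower at day 7, including Fbxw7, which marks the cut receptor for breakdown (-1.30), and Numbl, of the Numb family (-1.51), and 0 higher and 4 lower with forskolin. All 3 tested genes of the wider HES and HEY group, of 8 listed, were lower at day 7. With forskolin 2 were lower and Bhlhe40 was higher, at 135 ± 8.51 FPKM in NFIA cells and 101 ± 8.58 FPKM in control cells. Hes6, an atypical member that is known to promote muscle differentiation, had 39.0 ± 13.3 FPKM in NFIA cells and 92.6 ± 20.5 FPKM in control cells, and Bhlhe41 had 13.6 ± 1.97 FPKM in NFIA cells and 30.0 ± 4.18 FPKM in control cells at day 7. Over all 7 lists, 11 of 41 tested genes were higher and 19 lower at day 7, or 73.2% called, where 55.5% of all tested genes were. With forskolin 7 were higher and 18 lower, or 61% called, where 61.6% of all tested genes were.

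In tissue 3 of 43 tested genes of these lists passed the test, or 6.98%, where 7.14% of all tested genes did, so the count is near the background. They are given as values. Aph1a, a gamma-secretase subunit, was lower, at 30.1 ± 2.10 FPKM in the libraries labelled NFIA-KO and 46.1 ± 5.45 FPKM in wild type (log2 fold change -0.59, adjusted p = 0.0442). Numb, an inhibitor of Notch, was higher, at 35.4 ± 6.46 FPKM in those labelled NFIA-KO and 20.9 ± 0.610 FPKM in wild type (0.72, adjusted p = 0.0417). Hes6 was higher, at 8.55 ± 0.956 FPKM in those labelled NFIA-KO and 5.35 ± 0.214 FPKM in wild type (0.59, adjusted p = 0.0471). These calls are unstable in number, since the count over all tested genes was 973 and ran from 19 to 1361 when single libraries were left out: 148, 109 and 541 without replicate 1, 2 or 3 of those labelled NFIA-KO, and 19 and 53 without wild-type replicate 1 or 3.

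Within C2C12 cells, the levels of the Notch genes were compared with those of other genes over the 18 libraries, as Pearson r of log2(FPKM + 1). The libraries come from 6 groups and 2 header dates, so an r mostly repeats the group means, and it is a description. Notch3 and Heyl had r = 0.906, Dll1 and Heyl 0.910 and Notch3 and Dll1 0.915, while Notch1 and Notch3 had r = -0.747. Among 8904 other genes the closest to Notch3 were Pnmal2 (r = 0.983) and Chrna1 (0.978), a subunit of the muscle acetylcholine receptor. The closest to Heyl were Hif1an (0.977) and C1qtnf3 (0.976), to Dll1 Cacng1 (0.959), a calcium channel subunit of muscle, and to Hes1 Cnn3 (0.966). Hey1 was closest to Rnf122 and Spsb1 (0.947 each), Jag1 to Shpk (0.958), Jag2 to Dcakd (0.969) and Notch1 to Naaa (0.951). Notch2 had the weakest closest gene, Zfhx4 (0.910).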

How the data were processed

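Libraries were TruSeq stranded mRNA libraries of Trizol and RNeasy total RNA, per the labels. The authors deposited FPKM, 1 table per library; the submitters' processing notes name TopHat, Cufflinks and mm9. Versions, annotation and strand setting: not given in the sources used here, nor is the number of reads. Each table lists 37305 entries; those of 1 symbol at overlapping loci were summed, which left 37041 genes. Each Notch gene was a single entry. Genes overlapping Notch1, Notch3, Notch4 and Dll1 reached at most 2.92 FPKM.

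Groups follow the labels. Comparisons used limma 3.58.1 (R 4.3.3) on log2(FPKM + 1) (moderated two-sided tests with a variance trend), in a fit of 18 C2C12 libraries and another of 6 tissue libraries. Genes with at least 1 FPKM in at least 3 libraries were tested, 14351 in cells and 13618 in tissue, and called at a Benjamini-Hochberg adjusted p under 0.05 over all of them. The procedure was tested on simulated data. Header dates are 2015 for C2C12 libraries with no number in the title and all tissue libraries, and 2016 for numbered C2C12 libraries; the labels do not say what the dates are.

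The Notch genes and lists were chosen with earlier results of these data known. All 10 are named; from each pathway list at most 3 called genes per comparison, those with the largest change at a mean of at least 5 FPKM and no overlap between groups. The nearest genes are those with the highest r. Promoters are from RefSeq (GRCm38.p6); gene positions are the deposited mm9 ones.

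Alternatives were a pseudocount of 0.1, no filter, quantile and median-of-ratios scaling, no variance trend, a replicate block, numbered C2C12 libraries only, header date as a term, zeros as missing where the same group also held a value of 100 FPKM or more, and each library left out.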

Additional observations from a re-analysis of the deposited data

Results flagged for a closer look

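In 5 cases the effect of 1 factor on a Notch gene differed between groups by the interaction test of limma, on the log2(FPKM + 1) scale. For the difference between days 3 of 9 tested Notch genes passed, where 45.3% of all tested genes did. For the difference in forskolin response 2 of 9 passed, where 20.1% of all tested genes did. These counts are near or below the shares of all tested genes and say little about the Notch genes as a set. The NFIA effect at day 7 less that at day 0 was 1.36 for Jag1, -1.03 for Hes1 and 0.60 for Notch2. For Jag1 the effect was 1.48 at day 7 and 0.12 at day 0. For Hes1 it was -1.24 at day 7 and -0.21 at day 0. For Notch2 it was 0.11 at day 7 and -0.49 at day 0.

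The forskolin response in NFIA cells less that in control cells was -1.0 for Jag1 and -1.44 for Hey1. For Jag1 the log2 fold change was -1.07 in NFIA cells and -0.07 in control cells. For Hey1 it was -0.24 in NFIA cells and 1.2 in control cells. In control cells the RNA of Nfia stayed at or under 2.23 FPKM, while in NFIA cells it was 9232 to 10448 FPKM with forskolin and 3189 to 3585 FPKM without it. The forskolin comparison of NFIA cells therefore also holds a difference in Nfia (log2 fold change 1.56, adjusted p = 2.76e-05), and its part in the responses was not tested.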

How the results depend on the processing

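Of 91 tests of a Notch gene, 39 were called; 38 kept direction and call under the 9 alternatives and with each library left out, and Notch1 at day 0 lost its call. No test reversed a call. Of 52 tests not called, 18 passed under at least 1 alternative. Counts of called genes that moved by over 1.5 times are given next, and the cause was not tested. Where only a Notch count is given for a setting and comparison, the count over all tested genes moved by at most 1.5 times there.

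The replicate block, with header date and library number partly the same thing, gave 5159 called genes for NFIA against control at day 0, against 3036 without the block, and 1260 against 570 for forskolin in control cells. For the difference in forskolin response it gave 5041 genes against 2890. Among Notch genes the block gave 3 against 1 for forskolin in control cells, 2 against 1 in NFIA cells, 5 against 3 for the difference between days and 4 against 2 for the difference in forskolin response. The C2C12 titles number replicates 2 and 3 only. Counting the unnumbered libraries as replicate 1, same-numbered libraries deviated together with r of 0.081 to 0.429. It was over 0.1 in all 3 pairs except for NFIA against control at day 7 (lowest 0.0933) and forskolin in control cells (0.081). Replicate 2 did not always match its own number best. For NFIA against control at day 0 its r was 0.165, where replicates 2 and 3 crossed reached 0.229. For forskolin in control cells these values were 0.081 and 0.206, and for forskolin in NFIA cells 0.114 and 0.161. For day 7 against day 0 in control cells they were 0.132 and 0.203. For NFIA against control at day 7 replicate 2 did match its own number best, at 0.225 against 0.0819. The labels do not say that a number marks a shared culture, and where the block changes a Notch call its value is given beside the result. Same-numbered tissue libraries deviated with r = -0.00912, 0.111 and 0.143, and tissue numbers were not taken to pair the samples. Header date as a term gave 5303, 1343 and 5149 genes for the first 3 and 3, 2, 5 and 5 Notch genes for the other 4.

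Numbered C2C12 libraries only gave 4556 genes for the difference in forskolin response. Among Notch genes they gave 8 for day 7 against day 0 in control cells (5 with all libraries), 3 and 2 for forskolin in control and NFIA cells, and 4 for the difference in forskolin response. Quantile and median-of-ratios scaling gave 2 Notch genes each for forskolin in control cells. In tissue, no filter gave 40 called genes, against 973.

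With single libraries left out, called genes in tissue ran from 19 to 1361 and for forskolin in control cells from 361 to 447. Notch genes called ran from 5 to 8 for day 7 against day 0 in control cells, 8 without control day 0 replicate 1, and from 1 to 2 for forskolin in NFIA cells, 2 without NFIA forskolin replicate 2.

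Quantile scaling moved the split of all called genes to 3039 higher and 4405 lower for day 7 against day 0 in control cells, from 3579 and 3434. For the difference between days it gave 3425 and 3327, from 2843 and 3662. Under quantile scaling the median log2 fold change of all genes for day 7 against day 0 in control cells went from 0.0186 to -0.0878. The median of the shifts of single genes stayed under 0.1 in size in every comparison. Each Notch gene was a single entry, so summing entries of a symbol changed no level. Depth is unknown, and no counting error is given for the low values of Notch4, Dll1 and Heyl.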
